A study of Mus musculus with 21 samples.

Results

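Experiment 4 is the set of 5 libraries in which endothelial cells from tumours of Shb knockout mice (KO, 2 libraries) were set against those of wild-type mice (WT, 3 libraries). They were chosen by column name, and are 5 of the 21 libraries of a series of 4 experiments. The cells were CD31-positive cells from tumours of E0771.lmb, a mouse mammary tumour line, in adult mice, and were taken 14 to 16 days after the tumour cells were injected. The KO mice carried 2 floxed Shb alleles and Cdh5-CreERt2, a Cre recombinase that tamoxifen switches on in cells using the endothelial Cdh5 promoter. Tamoxifen preceded tumour growth, as the protocol words it, in both genotypes. The labels do not say which alleles the wild-type mice carried, nor which samples share a tumour: 9 WT and 8 KO tumours gave the 11 WT and 10 KO samples of the series. The p-values therefore measure the spread between samples, part of which may be technical. A magnetic step on CD45, the pan-leukocyte surface protein, came before the CD31 sort, and the protocol also names a blood-cell deleter line, Vav1-cre, to which no sample is assigned.

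SHB is an adaptor protein with an SH2 domain, which docks on phosphorylated tyrosines of receptors such as VEGFR2 and links them to focal adhesion kinase, the CRK adaptors, RAP1 and phosphoinositide 3-kinase. VEGFR2, encoded by Kdr, is the main receptor through which VEGF drives sprouting and permeability of blood vessels, and tumour vessels are continually exposed to that signal. Comparing KO with WT asks which endothelial transcripts differ when the adaptor is deleted in the vessel wall.

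The 5 libraries were not alike in their cells. Values are TPM, a length-corrected level that sums to the same total in every library, and do not record depth. Pecam1, which encodes CD31, stood at 1261 and 242 TPM in KO replicates 1 and 2 and at 1235, 95.04 and 1218 TPM in WT replicates 1, 2 and 3. Replicate 2 of each genotype was thus low in the marker used for the sort, and both were also low in Cdh5, the endothelial cadherin (308 and 106 TPM against 1295 to 1479 TPM in the other 3 libraries). All 22 pan-endothelial markers were measured, and their summed level was 11816 and 2567 TPM in KO and 12485, 898 and 11065 TPM in WT. Krt8, a keratin of epithelial and mammary tumour cells, was listed at 0 and at 69.4 TPM in KO and at 3.06, 269 and 3.51 TPM in WT. The 12 pan-leukocyte markers, all measured, summed to 117 and 239 TPM in KO and to 181, 741 and 144 TPM in WT, with Ptprc, which encodes CD45, at 12.7 TPM in KO replicate 2 and 52.8 TPM in WT replicate 2. Of the 14 tumour epithelium markers 3 passed the filter, and the list summed to 8.29 and 163 TPM in KO and 3.06, 355 and 9.79 TPM in WT. Genes of the mitochondrial genome took 4.33% and 23.01% of the TPM in KO and 6.25%, 17.7% and 14.6% in WT, and the 20 highest genes took 71.1% of KO replicate 2 and 38.5% to 52.5% of the other 4 libraries. Over genes, log2 levels in different libraries correlated at 0.735 to 0.890, with every value that involves a replicate 2 at or below 0.792. In bulk samples fewer cells of a type and less RNA per cell cannot be told apart.

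**Figure D1:**
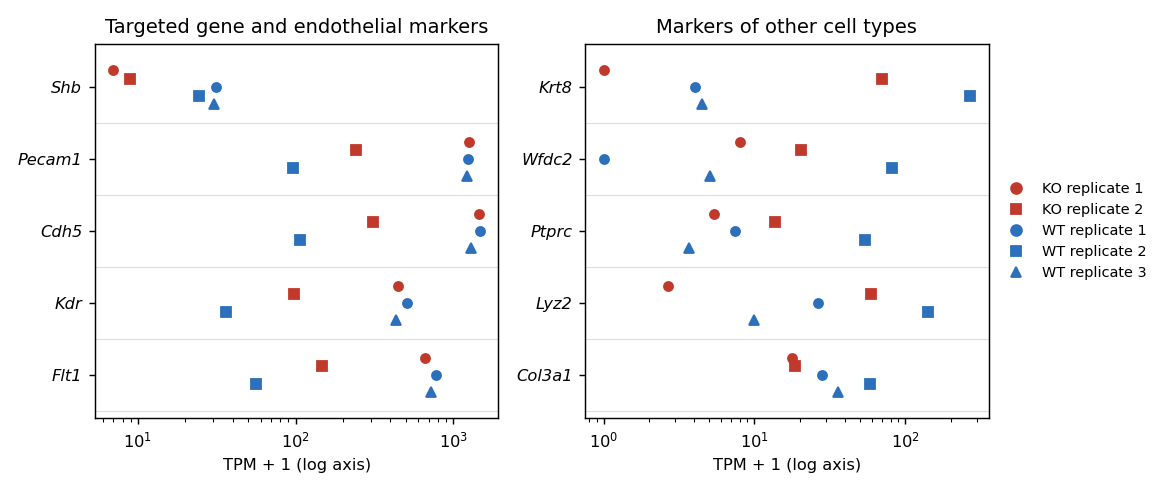
TPM + 1 (log axis) of Shb, 4 endothelial markers and 5 markers of other cell types in each library of experiment 4, with KO in red and WT in blue. Both replicates 2 (squares) lie low in the endothelial markers and high in Krt8, Ptprc and Lyz2, while for Shb the 2 KO libraries lie below the 3 WT libraries.

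The targeted gene was lower in the libraries labelled KO. Shb stood at 6.00 and 7.99 TPM in KO and at 30.5, 23.4 and 29.3 TPM in WT, a mean of 6.99 ± 1.41 (SD, n = 2) against 27.7 ± 3.81 (SD, n = 3). The groups did not overlap, and within each genotype the replicate low in Pecam1 lay near the others. The difference on the log2(TPM + 1) scale was -1.85 (SE 0.60, 95% interval -3.17 to -0.52), which is a ratio of 0.278. An exact two-sided permutation test over the 10 arrangements of the libraries gave p = 0.1, the smallest that 2 against 3 can give, and limma over all genes gave an unadjusted p of 0.0109 and an adjusted p of 0.908. The gene (ENSMUSG00000044813) lies on chromosome 4 from 45423278 to 45532470, minus strand, in GRCm38. Exons that Cre leaves in place can still add to its TPM, and their part in it was not tested. In the 14 libraries of the other experiments Shb ran from 13.0 to 52.7 TPM in KO and from 17.3 to 74.3 TPM in WT, with a log2 difference of -0.31 (limma adjusted p = 0.695). Both KO libraries of experiment 4 lay below all 14 of these. The contrast in experiment 4 minus that of the others was -1.56 (SE 0.66), which did not pass (limma adjusted p = 0.254, unadjusted 0.0314).

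Over the 13913 genes that reached 1 TPM in 2 or more libraries, a single gene passed an adjusted p under 0.05 in limma (0.00719% of the genes tested), and it was higher in KO. No gene passed in the lower direction. An unadjusted p under 0.05 was found for 47 genes higher in KO (0.338%) and 382 lower (2.75%). Every KO library lay above every WT library for 248 genes (1.78%) and below every WT library for 2600 (18.7%). The median gene differed by -0.55, by -0.07 without KO replicate 2 and by -0.16 without both replicates 2. With libraries shifted to a common median the unadjusted counts were 169 higher and 145 lower, against 47 and 382, so for lists a relative median is given, the list's median log2 difference minus that of all genes tested. Without KO replicate 1 there were 2341 genes lower at an unadjusted p under 0.05. Without KO replicate 2 there were 85 higher and 185 lower, and without both replicates 2 there were 185 higher and 368 lower, so the lower side held more genes there too. Without WT replicate 2 there were 74 higher, and without WT replicate 3 there were 167 lower.

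**Figure D2:**
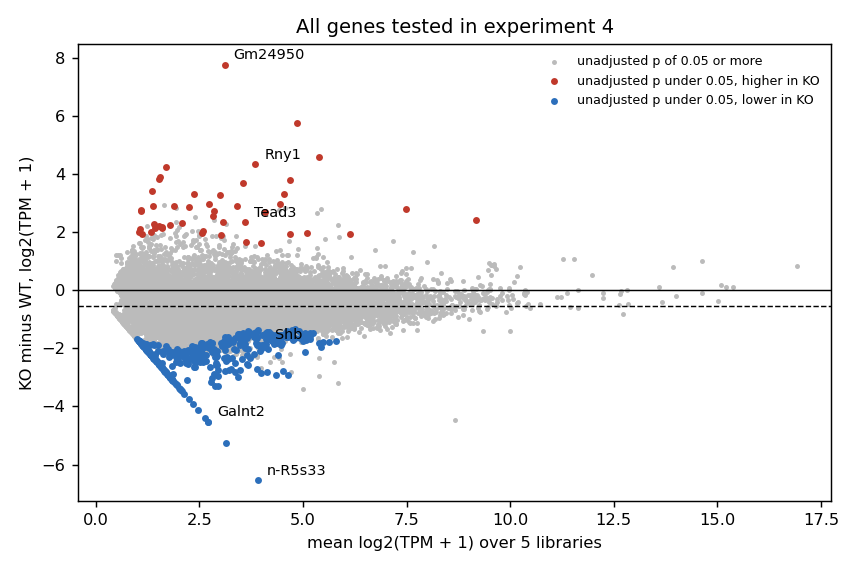
KO minus WT on the log2(TPM + 1) scale against the mean level for the 13913 genes tested, with the 47 genes higher and 382 lower at an unadjusted p under 0.05 in colour. The dashed line is the median difference of -0.55; the straight lower edge is formed by genes listed at 0 in both KO libraries.

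The gene that passed was Gm24950, an annotated U2 small nuclear RNA gene that does not fall under the rule for named genes and was chosen after its values were seen. U2 is the spliceosomal RNA that pairs with the branch point of introns. Gm24950 (ENSMUSG00000064702, chromosome 11 from 101641748 to 101641938, plus strand) stood at 226 and 209 TPM in KO and was listed at 0 in all 3 WT libraries (log2 difference 7.77, SE 0.69, limma adjusted p = 0.00459). Its transcript is shown because 3 other genes of the table, Rnu2-10, Gm23849 and Gm23971, have exactly the same sequence in GENCODE M21 (GRCm38). The next line gives Gm25939 on chromosome 1 (72255008 to 72255198, plus strand), the U2 copy with a value above 0 in all 5 libraries, with its differences from Gm24950 in capitals (T69C, C78T and G109C, counted from 1 at the 5′ end).
Gm24950: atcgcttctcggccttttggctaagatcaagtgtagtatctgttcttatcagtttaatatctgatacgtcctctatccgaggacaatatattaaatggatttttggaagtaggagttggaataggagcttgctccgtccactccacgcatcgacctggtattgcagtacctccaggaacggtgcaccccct
Gm25939: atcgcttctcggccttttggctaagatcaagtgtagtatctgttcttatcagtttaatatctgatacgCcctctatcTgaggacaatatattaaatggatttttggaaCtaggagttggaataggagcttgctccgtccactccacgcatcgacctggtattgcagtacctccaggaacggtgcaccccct
Identical copies cannot be told apart by a read that lies within them, and how reads with several matches were placed is not given in the sources used here. Rnu2-10 was listed at 0 in both KO libraries and stood at 264 and 205 TPM in WT replicates 1 and 2. Gm23971 stood at 157 and 134 TPM in KO and at 96.4, 0 and 294 TPM in WT. Gm23849 was above 0 only in KO replicate 1, at 256 TPM. Summed over the 4 identical copies, U2 stood at 639 and 343 TPM in KO and at 360, 205 and 294 TPM in WT, and the groups overlapped. The mean sum was 491 ± 209 (SD, n = 2) against 286 ± 78.2 (SD, n = 3), and the log2 difference was 0.75 with an exact two-sided permutation p of 0.3 over 10 arrangements. Over the 14 U2 copies with at least 90% identity to Gm24950 the groups did not overlap. That wider sum was 945 and 742 TPM in KO and 511, 427 and 527 TPM in WT. It ran from 147 to 1588 TPM in the other experiments, and its difference was not tested. Leaving out WT replicate 3 let Rnu2-10 pass as lower in KO beside Gm24950 as higher. The call of Gm24950 was lost without KO replicate 1 (limma adjusted p = 0.261) or KO replicate 2 (limma adjusted p = 0.593), where the log2 difference stayed at 7.71 and 7.83. It was also lost with a pseudocount of 0.1 (limma adjusted p = 0.119), without a filter (limma adjusted p = 0.0816), without both replicates 2 (limma adjusted p = 0.867) and with the spread pooled over 19 libraries (limma adjusted p = 0.276), where the 1 gene called higher was another one, Gm14431. In the 14 libraries of the other experiments the sum of the 4 identical copies ran from 68.5 to 741 TPM, and Gm24950 itself was listed at 0 in 11 of them.

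**Figure D3:**
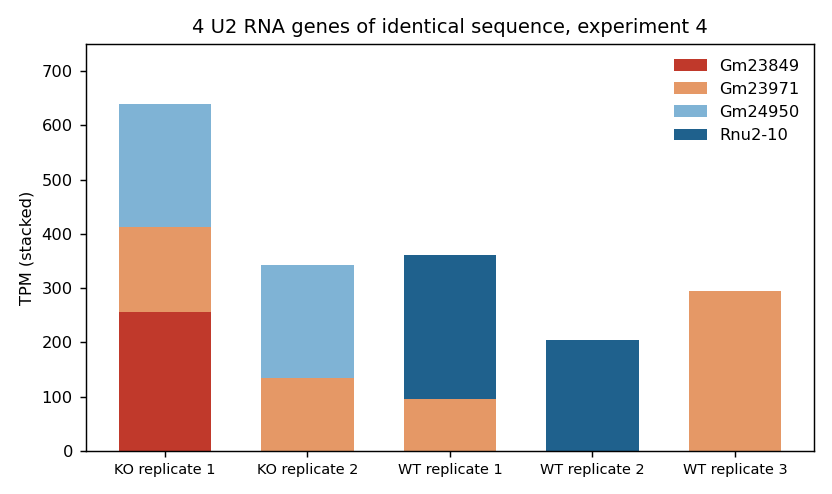
Stacked TPM of the 4 U2 genes with identical sequence in each library of experiment 4. The light blue Gm24950 segment appears only in KO and the dark blue Rnu2-10 segment only in WT, while the full bars run from 205 to 639 TPM and overlap between genotypes.

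A 5S ribosomal RNA copy stood at the other end. n-R5s33 was listed at 0 in both KO libraries and stood at 339, 23.02 and 96.3 TPM in WT, and it did not pass (limma adjusted p = 0.276). It passed without WT replicate 2 (limma adjusted p = 2.8e-09) and with the spread pooled over 19 libraries (limma adjusted p = 0.00154). It also passed with the pan-endothelial mean as a covariate (limma adjusted p = 0.000211) and with 1 column of unsettled sample added to KO (limma adjusted p = 0.0361). The fits without WT replicate 2 and with the covariate lean more on limma's prior, the spread borrowed from all genes, than the main fit. Their residual plus prior degrees of freedom were 61.6 and 17.7, against 10.5 in the main fit, and their p-values are not weighed. With a replicate block the log2 difference was -6.50, and that fit leaves too little residual spread for its p-value to be weighed. n-R5s33 was listed at 0 in all 14 libraries of the other experiments. KO libraries held other 5S copies: n-R5s2 at 424 TPM in KO replicate 1 alone, and n-R5s194 at 257 TPM in KO replicate 2 alone. Both are 94.1% identical to n-R5s33. Over the 60 copies of the table with at least 90% identity to n-R5s33 the sum was 439 and 273 TPM in KO and 356, 27.8 and 96.3 TPM in WT. KO replicate 1 was the highest and WT replicate 1 lay above KO replicate 2, so these sums overlapped. The highest sum in the other experiments was 65.7 TPM.

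Short structural RNAs were frequent among the genes higher in KO. They made up 16 of the 47 genes with an unadjusted p under 0.05, 8 of the 382 lower ones and 119 of all 13913 genes tested. Among the named genes on the higher side, none of which passed (limma adjusted p = 0.908 for each), 5 were structural RNAs. Rny1, the Y RNA bound by the Ro autoantigen, stood at 144 and 52.3 TPM in KO and at 0, 18.7 and 3.07 TPM in WT. Without WT replicate 2 Rny1 passed (limma adjusted p = 7.6e-05), in a fit that rests largely on the prior over all genes, so this p-value is not weighed. Snora73b, a small nucleolar RNA, stood at 112 and 137 TPM in KO and 0, 32.6 and 20.1 TPM in WT. Scarna6, of the Cajal bodies, stood at 23.7 and 50.0 TPM in KO and 0, 18.8 and 4.44 TPM in WT. Each of the 3 was listed at 0 in WT replicate 1. A second 5S copy, n-R5s193, and the 18S-related Rn18s-rs5 were the other two. n-R5s193 stood at 244 and 421 TPM in KO and at 203, 0 and 0 TPM in WT, and without WT replicate 1 it passed (limma adjusted p = 0.0119). Rn18s-rs5 stood at 146 and 167 TPM in KO and at 116, 18.4 and 29.9 TPM in WT. A list of 19 abundant structural RNAs together took 32.9% and 37.6% of the TPM in KO and 32.0%, 28.2% and 17.8% in WT. The part of this share in the differences of other genes was not tested.

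Of the protein-coding genes named on the higher side, Tead3 had the smallest p. It encodes a TEAD factor, the DNA-binding partner of YAP and TAZ. Tead3 stood at 28.9 and 33.6 TPM in KO and at 8.94, 2.97 and 5.51 TPM in WT, a log2 difference of 2.34 (SE 0.67). In the other experiments its contrast was 1.54 (limma adjusted p = 0.434), with KO libraries from 2.70 to 124 TPM. Alpk1, a kinase that senses bacterial sugars, stood at 13.3 and 21.8 TPM in KO and at 2.50, 3.08 and 6.61 TPM in WT. Fam107b stood at 30.9 and 18.2 TPM in KO and 5.43, 10.6 and 5.25 TPM in WT. Hist1h4k, a histone H4 gene with close copies among which reads can be split, stood at 103 and 52.8 TPM in KO and at 0, 41.8 and 19.4 TPM in WT.

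The named genes on the lower side, Shb and n-R5s33 aside, also missed the threshold (limma adjusted p = 0.908 for each). Nmt2, which attaches myristate to proteins, stood at 7.40 and 5.92 TPM in KO and at 23.8, 41.7 and 22.7 TPM in WT (log2 difference -1.94, SE 0.62). Paxip1, an adaptor of DNA repair and of histone methylation complexes, stood at 4.88 and 7.36 TPM in KO and at 30.0, 22.3 and 23.2 TPM in WT (log2 difference -1.89, SE 0.61). For both genes the KO libraries were close together, as with Shb. Hnrnph3, a splicing factor, stood at 7.92 and 5.67 TPM in KO and at 24.3, 21.9 and 50.9 TPM in WT. In the rest KO replicate 2 was the lowest of the 5. Ap1ar, which acts on the AP-1 vesicle coat, stood at 8.95 and 3.38 TPM in KO and at 33.9, 24.8 and 23.3 TPM in WT. Gtdc1, a glycosyltransferase-like gene, stood at 6.50 and 1.55 TPM in KO and at 30.3, 14.3 and 33.6 TPM in WT. Mob4, of the STRIPAK phosphatase complex, stood at 17.5 and 0.976 TPM in KO and at 80.1, 29.6 and 38.4 TPM in WT. Rnaset2a, a lysosomal ribonuclease gene with a near copy, and the noncoding Epb4.1l4aos were listed at 0 in KO replicate 2 and stood at 8.57 and 9.11 TPM in KO replicate 1.

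**Figure D4:**
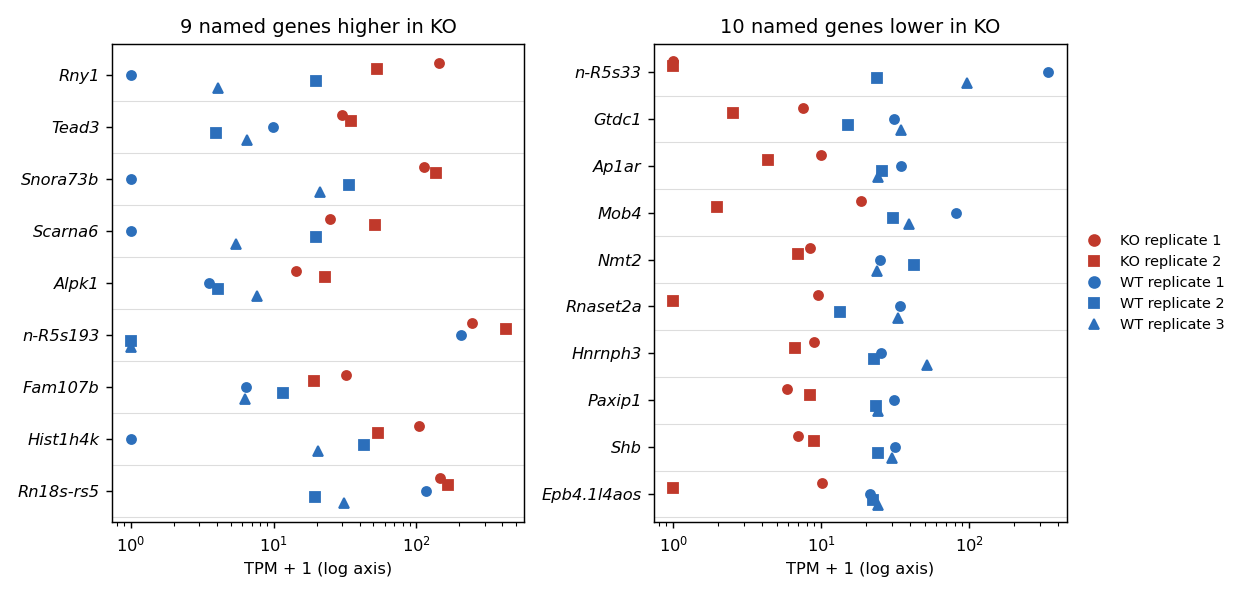
TPM + 1 (log axis) in each library for 9 named genes higher and 10 lower in KO; none passed the adjusted threshold. In every row the red KO points do not overlap the blue WT points, as the choice of genes requires; for Rny1, Snora73b, Scarna6 and Hist1h4k WT replicate 1 is at 0 TPM.

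A gene can be named for its difference from the other 3 experiments, which share no library with experiment 4. Of 13316 genes tested over 19 libraries, 2 passed (0.015%), both lower in experiment 4. Galnt2 encodes an enzyme that starts mucin-type O-glycosylation of proteins in the Golgi. It was listed at 0 in both KO libraries and stood at 21.6, 24.7 and 19.9 TPM in WT. In the 14 libraries used from the other experiments it was never at 0: it ran from 22.9 to 36.1 TPM in KO and from 7.31 to 60.1 TPM in WT. A column of unsettled sample, whose header names a KO library of experiment 2, is outside that range and listed Galnt2 at 0. The contrast in experiment 4 minus that of the others was -4.75 (SE 0.66, limma adjusted p = 0.0189). Within experiment 4 alone Galnt2 did not pass (limma adjusted p = 0.505), and with the spread taken from all 19 libraries it did (limma adjusted p = 0.00307). The gene lies on chromosome 8 from 124231391 to 124345724, plus strand. Gm27019, a long noncoding RNA gene on chromosome 6 (31063092 to 31063495, minus strand), was listed at 0 in both KO libraries and stood at 24.0, 14.1 and 32.0 TPM in WT, with a difference of -6.22 (SE 0.90, limma adjusted p = 0.0189). Its contrast in the other experiments was in the opposite direction, at 1.72 (limma adjusted p = 0.284). Neither call held with libraries on a common median or without both replicates 2, where 0 genes passed.

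Of the 13913 genes tested, 584 were listed at 0 in both KO libraries. They made up 128 of the 382 lower genes with an unadjusted p under 0.05. The filter lets such a gene in only through WT, so it could only be lower, and the count is no result about KO. With every WT library at 10 TPM or more there were 4 such genes, Galnt2, Gm27019, n-R5s33 and Dctpp1, a nucleotide pyrophosphatase gene named after its values were seen (32.7, 21.8 and 10.9 TPM in WT). In the reverse direction every WT library was at 0 for 7 genes tested, all among the 47 higher at an unadjusted p under 0.05. The filter lets such a gene in only through both KO libraries, so it could only be higher, and this count is no result about KO either. With both KO libraries at 10 TPM or more these genes were Gm24950 and Gm22058, another short RNA gene at 17.0 and 18.8 TPM. Zeros also fell on single libraries: KO replicate 1 was at 0 for 3 genes that had 20 TPM or more in the other 4 libraries, KO replicate 2 for 8, WT replicate 1 for 7, WT replicate 2 for 1 and WT replicate 3 for 0. A 0 in a TPM table can mean no reads or a failed assignment, and the 2 cannot be told apart here.

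The remaining genes with the smallest p in that comparison did not pass. Celf1, an RNA-binding splicing regulator, stood at 30.0 and 11.2 TPM in KO and at 74.5, 70.7 and 75.2 TPM in WT, and its contrast minus that of the others was -2.20 (limma adjusted p = 0.159). Cdc25a, the phosphatase that starts S phase, stood at 6.38 and 4.50 TPM in KO and at 23.8, 14.4 and 13.8 TPM in WT (limma adjusted p = 0.167 for its difference). Mul1, a mitochondrial ubiquitin ligase, stood at 47.1 and 30.6 TPM in KO and at 30.0, 7.56 and 11.6 TPM in WT. Hist1h4m, the single gene that passed in experiments 1 to 3 alone (1 of 14188 genes, 0.00705%, log2 difference -5.80), stood at 0.607 and 66.6 TPM in KO and at 63.3, 17.3 and 90.5 TPM in WT of experiment 4. KO replicate 1 was thus far below WT and KO replicate 2 within it. Its contrast here was -2.19 (SE 1.32, limma adjusted p = 0.908).

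The genes with an unadjusted p under 0.05 were looked up in experiments 1 to 3. Of the 47 higher genes 34 were tested there, 23 had the same sign and 2 an unadjusted p under 0.05, where 68.7% of all genes were higher. Of the 382 lower genes 370 were tested, 128 had the same sign and 7 an unadjusted p under 0.05, where 31.3% of all genes were lower. Both shares of the same sign were near those of all genes.

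In the VEGF system, the pathway in which SHB acts, both main receptors were low in the same libraries as Pecam1. Kdr stood at 443 and 96.8 TPM in KO and at 512, 35.1 and 433 TPM in WT, and Flt1, the decoy-like receptor VEGFR1, at 659 and 146 TPM in KO and 773, 55.5 and 719 TPM in WT. For both genes the replicates 2 were the lowest of their genotype. Nrp2, the co-receptor neuropilin 2, stood at 94.6 and 72.0 TPM in KO and at 114, 139 and 138 TPM in WT, the 1 gene of 9 tested in the list whose groups did not overlap; 18.7% of all genes lay below every WT library. It did not pass (log2 difference -0.65, SE 0.68, limma adjusted p = 0.908). Of the 9 genes 3 were higher and 6 lower, and the relative median was 0.51 with all libraries and -0.01 without both replicates 2.

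Of the 22 Shb signalling partners, 21 were lower in KO, with 11 above and 11 below the median difference of all genes, and a relative median of -0.01. Groups did not overlap for 5, all lower, against 18.7% of all genes. Crkl, a CRK adaptor, stood at 13.4 and 4.84 TPM in KO and at 21.7, 14.7 and 25.5 TPM in WT. Pik3cb, a catalytic subunit of phosphoinositide 3-kinase, stood at 12.1 and 3.07 TPM in KO and at 18.3, 13.3 and 18.2 TPM in WT. Ptk2, the focal adhesion kinase, stood at 47.5 and 34.3 TPM in KO and at 65.5, 73.2 and 87.5 TPM in WT. Ptpn11, the phosphatase SHP2, stood at 34.5 and 12.4 TPM in KO and at 39.4, 30.8 and 52.0 TPM in WT, and its groups overlapped. None of the 22 had an unadjusted p under 0.05. The SHB relatives She and Shf did not differ beyond their spread: She stood at 54.1 and 12.2 TPM in KO and at 40.8, 3.60 and 82.4 TPM in WT, with a 95% interval of the log2 difference from -2.40 to 2.59, and Shf at 9.66 and 2.92 TPM in KO and 8.18, 7.95 and 17.1 TPM in WT.

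Of the other lists none had a gene that passed, and they are described by counts. In the hypoxia response 20 of 21 genes were lower in KO, 15 of them below the median difference of all genes, and 10 lay below every WT library, against 18.7% of all genes. The relative median was -0.30, and -0.30 without both replicates 2 too. In the other experiments it was -0.17. Bnip3, a mitophagy receptor induced in low oxygen, stood at 1.45 and 11.9 TPM in KO and at 17.2, 52.6 and 16.4 TPM in WT. Hilpda, a lipid droplet protein, stood at 15.1 and 5.24 TPM in KO and at 22.5, 49.0 and 19.8 TPM in WT. Kdm3a, a histone demethylase, stood at 11.2 and 7.67 TPM in KO and at 21.8, 31.3 and 20.8 TPM in WT. Loxl2, a collagen crosslinking enzyme, was listed at 0 in both KO libraries and stood at 1.26, 23.9 and 1.10 TPM in WT. WT replicate 2, the library lowest in endothelial and highest in epithelial markers, was the highest for each of the 4, and the part of other cells in this list was not tested. Glycolysis genes, 18 of 19 lower, had a relative median of -0.15, and of 0.33 without both replicates 2.

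Lists of immune-facing genes differed in side. The 33 type I interferon-stimulated genes, 26 of them lower in KO, had a relative median of 0.33, of 0.32 without both replicates 2 and of 0.60 in the other experiments. Rsad2, the antiviral viperin, stood at 106 and 31.2 TPM in KO and at 45.6, 14.8 and 57.1 TPM in WT, and Mx2 at 4.82 and 7.02 TPM in KO and 9.05, 6.36 and 31.6 TPM in WT. For Mx2 the contrast minus that of the other experiments was -2.37, which was not past the threshold (limma adjusted p = 0.218). MHC class II genes, 8 of 9 lower, had a relative median of -0.43, of -1.16 without both replicates 2 and of -2.02 in the other experiments. H2-Aa, an alpha chain, stood at 5.44 and 46.5 TPM in KO and at 32.1, 146 and 21.1 TPM in WT. Lyz2, a macrophage lysozyme, ordered the 5 libraries in the same way, at 1.67 and 58.2 TPM in KO and 25.4, 140 and 8.89 TPM in WT, and the part of macrophages in the class II values was not tested. All 16 NF-kB factors and feedback targets were lower, where 11263 of all 13913 genes were, and 5 of the 16 lay above the median difference of all genes. Only 1 of the 16 lay below every WT library, against 18.7% of all genes. The relative median was -0.15, -0.29 without both replicates 2, 0.12 with the column of unsettled sample added to KO, and 0.16 in the other experiments. Ido1, the tryptophan-degrading enzyme, was listed at 0 in both KO libraries and stood at 6.16, 0.392 and 12.7 TPM in WT. Ccl21a, a lymphatic chemokine with near-identical copies, was listed at 0 in KO and stood at 9.06, 6.20 and 46.1 TPM in WT.

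Vessel-type genes ran with the replicates 2. Capillary and lipid handling genes had 9 of 12 higher in KO and a relative median of 0.84, and of 0.29 without both replicates 2. Tip cell genes, which mark the leading cells of sprouts, had 10 of 20 higher and relative medians of 0.56 and 0.30. Arterial genes had 9 of 14 higher and relative medians of 0.59 and 0.02. The 22 pan-endothelial markers themselves had relative medians of 0.63 and 0.17. In each of these 4 lists WT replicate 2 had the lowest mean level of the 5 libraries. Venous genes also had their lowest mean level there, but 10 of 12 were lower in KO, with relative medians of 0.17 and -0.19. Mgp, a matrix protein of arteries, stood at 85.9 and 30.1 TPM in KO and at 16.7, 1.12 and 106 TPM in WT. Mfsd2a, a lipid transporter of vessels with a tight barrier, is outside these 4 lists and did not follow them. It stood at 6.86 and 18.9 TPM in KO and 0, 1.91 and 0.569 TPM in WT, with KO replicate 2 the highest. The groups did not overlap (limma unadjusted p of 0.00984, adjusted p = 0.908), and 1.78% of all genes lay above every WT library in this way. Mfsd2a was at most 1.51 TPM in the 14 other libraries.

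**Figure D5:**
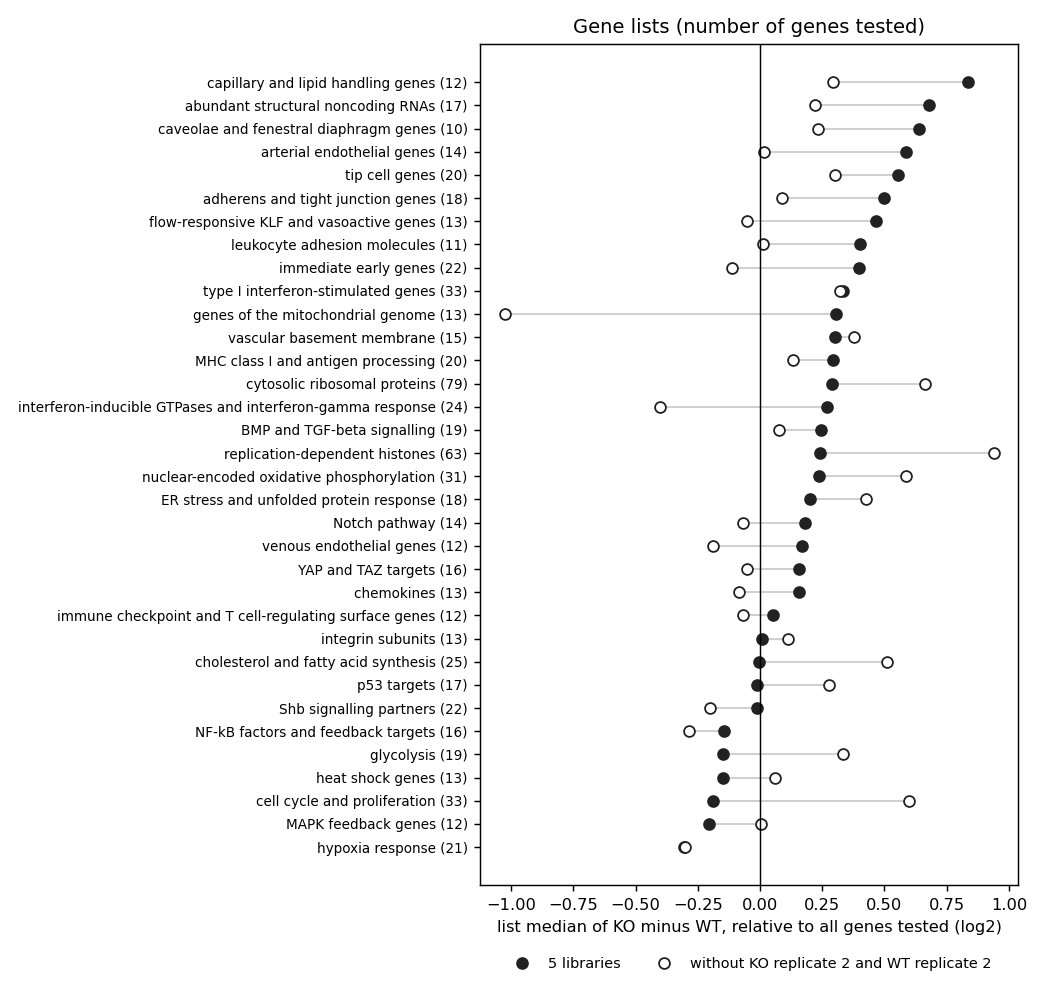
Median KO minus WT of each biological list with 10 or more genes tested, relative to the median of all genes (log2), with all 5 libraries (filled) and without KO replicate 2 and WT replicate 2 (open). Hypoxia stays at -0.30 in both, while cell cycle genes move from -0.19 to 0.60 and mitochondrial genome genes from 0.30 to -1.02.

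Signalling and adhesion lists held a few genes whose groups did not overlap, none with an unadjusted p under 0.05. Of the 12 MAPK feedback genes, which are induced by ERK signalling and damp it, 11 were lower in KO, with relative medians of -0.21 and of 0.00 without both replicates 2. Spry2, a Sprouty inhibitor of receptor signalling, stood at 7.10 and 11.0 TPM in KO and at 14.7, 35.7 and 21.8 TPM in WT. Dusp5, a nuclear ERK phosphatase, stood at 10.4 and 12.5 TPM in KO and at 13.8, 34.1 and 42.7 TPM in WT. These were the 2 of the 12 genes with every KO library below every WT library, a share near the 18.7% of all genes. Of the 14 Notch pathway genes 13 were lower, with relative medians of 0.18 and -0.07. Rbpj, the DNA-binding factor of Notch, stood at 12.9 and 8.90 TPM in KO and at 17.2, 47.8 and 29.3 TPM in WT. It was the 1 gene of the 14 with every KO library below every WT library, against 18.7% of all genes. Dll4, the tip cell ligand, stood at 195 and 125 TPM in KO and at 227, 25.3 and 259 TPM in WT. Of the 13 integrin subunits 11 were lower and 3 lay below every WT library, near the shares over all genes (11263 of 13913 lower, 18.7% below every WT library), with relative medians of 0.01 and 0.11. Itgav, the alpha v chain of vitronectin receptors, stood at 33 and 25.8 TPM in KO and at 48.3, 88.8 and 70.2 TPM in WT. In the angiopoietin and Tie system 0 of 6 genes had groups that did not overlap, and Angpt2, the ligand that loosens vessels, stood at 144 and 48.8 TPM in KO and at 208, 24.7 and 139 TPM in WT.

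Of 10 fibroblast markers tested 2 were higher in KO, and 2 lay below every WT library. Of 12 pericyte and smooth muscle markers 1 lay below every WT library, where 18.7% of all genes did. Col3a1, a fibrillar collagen of fibroblasts, stood at 16.8 and 17.6 TPM in KO and at 27.2, 57.2 and 34.6 TPM in WT. The fibroblast list as a whole summed to 77.2 and 73.7 TPM in KO and to 60.3, 274 and 131 TPM in WT, where WT replicate 1 was the lowest. All 5 lymphatic endothelial markers tested were lower, and 3 lay below every WT library, against 18.7% of all genes, with relative medians of -0.35 and -1.40. Their levels were small apart from Flt4 and Ccl21a. Flt4 stood at 88.0 and 11.4 TPM in KO and 80.5, 6.79 and 61.8 TPM in WT. Ccl21a, which has near-identical copies and whose values are given above, was 1 of the 3 below every WT library. Lyve1, a lymphatic hyaluronan receptor, stood at 1.62 and 0.683 TPM in KO and at 2.56, 2.73 and 3.54 TPM in WT. Col3a1 and Lyve1 did not pass (limma adjusted p = 0.908 for each).

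Cell cycle genes and genes of the mitochondrial genome changed side without both replicates 2, while ribosomal protein genes did not. Cell cycle genes, 27 of 33 lower in KO, had a relative median of -0.19, and of 0.60 without both replicates 2. Rrm2, the ribonucleotide reductase subunit, stood at 8.50 and 4.74 TPM in KO and at 15.1, 58.2 and 20.6 TPM in WT, with no overlap. Every KO library lay below every WT library for 5 of the 33 genes, against 18.7% of all genes. Genes of the mitochondrial genome had relative medians of 0.30 and -1.02. mt-Nd3 stood at 131 and 2478 TPM in KO and at 2192, 845 and 1799.6 TPM in WT. Cytosolic ribosomal protein genes, 71 of 79 lower, had a relative median of 0.29, of 0.66 without both replicates 2 and of -0.46 in the other experiments. Rpl3 stood at 499 and 252 TPM in KO and at 514, 680 and 476 TPM in WT.

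A sixth column of the deposited table may belong here. No column names KO replicate 3 of experiment 4, and a header naming KO replicate 3 of experiment 2 occurs over 2 columns; the second of these was used only as an alternative. In it Shb stood at 11.0 TPM, Pecam1 at 1105 TPM, Tead3 at 57.3 TPM, and Gm24950, n-R5s33 and Galnt2 at 0. It correlated at 0.660 to 0.797 with the libraries of experiment 4 and at 0.807 to 0.835 with those of experiment 2. Added to the KO libraries it gave a Shb difference of -1.65 (exact two-sided permutation p = 0.1 over 20 arrangements). The call of Gm24950 was lost (limma adjusted p = 1.00) and n-R5s33 passed (limma adjusted p = 0.0361). For Nmt2, Paxip1, Gtdc1 and Celf1 this column stood at 38.7, 38.8, 52.7 and 83.1 TPM, above both KO libraries and within or above the WT range.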

How the data were processed

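Total RNA of sorted CD31-positive cells was sequenced from 30 ng with a stranded kit with ribosomal RNA depletion and read as 150-base pairs, per the labels' protocols. The authors deposited TPM for 45706 genes on GRCm38, per the submitters' processing notes; the aligner and counter were not given in the sources used here. Depth is not recorded, so no counting interval is given. Gene names came from the deposited file, with 27 date-like names restored, and positions and short RNA sequences from GENCODE M21.

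Genes reaching 1 TPM in 2 or more of the 5 libraries were tested as log2(TPM + 1) with limma 3.58.1 (R 4.3.3, statmod 1.5.0; trended, robust prior, genotype only) and Benjamini-Hochberg adjustment, and Shb also by exact permutation. Fold changes on this scale understate those of low genes. The script was tested on simulated data. The comparison with experiments 1 to 3 used 19 libraries, 1 mean per experiment and genotype. Of the 2 columns with a shared header, 1 was used in no step and the other only as an alternative. U2, 5S and Y RNA copies were compared by global alignment at 90% identity or more.

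Named genes are Shb, 10 per direction with the smallest unadjusted p among genes whose groups do not overlap and whose mean log2 level is at least 3 (predicted models left out), up to 4 members of each of 38 biological lists and 3 of each of 15 cell type lists, and 5 per direction for the difference from the other experiments. One named gene and the 5S sequences are not reported here. Members and lists were chosen with earlier results of these data known. The alternatives covered pseudocount, filter, scaling, variance prior, the replicate block and left-out libraries.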

Additional observations from a re-analysis of the deposited data

Results flagged for a closer look

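The KO against WT difference of Galnt2 in experiment 4 passed the test of its difference from the other experiments in the main fit. With libraries on a common median 0 genes passed that test. Experiment 4 minus the mean of experiments 1 to 3 was -4.75 on the log2 scale (limma adjusted p = 0.0189), with Galnt2 listed at 0 in both KO libraries here and above 20 TPM in the 6 KO libraries used from elsewhere. The difference of Gm27019 was -6.22 (limma adjusted p = 0.0189), with both KO libraries listed at 0. In the column of unsettled sample, headed as a KO library of another experiment and tried here as a further KO library, Galnt2 was listed at 0 and Gm27019 stood at 39.3 TPM. With that column added, Galnt2 alone passed.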

How the results depend on the processing

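The count of genes called was small throughout. It was 0 higher and 1 lower with the column of unsettled sample added to KO, and 0 higher with a pseudocount of 0.1, without a filter, or without both replicates 2. The lower count was 2 with the spread pooled over 19 libraries and 3 with the pan-endothelial mean as a covariate. Leaving out 1 library gave 0 to 2 higher and 0 to 3 lower. Genes higher at an unadjusted p under 0.05 numbered 31 with a pseudocount of 0.1, 29 with a minimum of 5 TPM, 169 on a common median, 187 after quantile normalization, 72 with TPM rescaled without mitochondrial and structural RNA genes, 71 with the pooled spread, 185 without both replicates 2 and 76 with the covariate. Lower ones numbered 225 with a minimum of 5 TPM, 145 on a common median, 133 after quantile normalization, 1893 with the pooled spread and 925 with the covariate. Leaving out 1 library gave 35 to 85 higher and 167 to 2341 lower. For the difference from the other experiments the lower count was 0 on a common median, 1 with that column and 0 without both replicates 2. Causes were not tested. Of the 429 genes with an unadjusted p under 0.05, 428 kept their direction with that column and 109 kept that direction and threshold without KO replicate 2. Shb was lower under all 18 alternatives, from -2.14 to -1.31.

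The replicate numbers of the 2 genotypes are not said to pair samples. Deviations from the group means correlated at 0.31 for replicates 1 and 0.39 for replicates 2. With 2 KO libraries the KO deviations are mirror images, so the crossed pairs gave -0.39 and -0.31. These values are therefore not separate checks and cannot decide whether samples pair. With a replicate block 12 genes were called higher and 11 lower, and 89 higher and 499 lower at an unadjusted p under 0.05. WT replicate 3 has no KO library of the same number, so it adds nothing to the difference in that fit. The fit leaves hardly any residual spread, so its counts rest on the prior over all genes and are not weighed.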
